A study of Mus musculus with 16 samples.

Results

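The kidney makes glucose and takes filtered glucose back, and 9 genes for these tasks were followed in mouse kidney: Pck1, G6pc, Fbp1, Pcx, Khk, Slc2a1, Slc2a2, Slc5a1 and Slc5a2. They were taken by name, through their Ensembl identifiers, from a deposited table of 40472 genes (G6pc is called G6pc1 in newer annotation). All 9 passed the filter on low counts that left 13614 genes for testing. The summed count of a gene over all libraries ran from 1185 for Slc2a1 to 28635 for Pck1.

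Poly(A) RNA of whole kidney was sequenced from male C57BL/6 mice aged 12 weeks, in 4 groups of 4 libraries. Group IRP had ischemia reperfusion, in which the blood supply of the kidney is stopped and then restored, and received PJ34, an inhibitor of poly(ADP-ribose) polymerases. Group IRV had ischemia reperfusion and received vehicle. Group NP had no injury and received PJ34, and group NV had no injury and received vehicle. Per the series' design text, the groups were set up to follow the inhibitor's effect over a longer term than the days just after injury. The labels call the uninjured kidneys normal and mention no sham operation, and they give neither the day of collection nor the dose. Replicates are numbered there, without a statement that each is its own animal, so p-values speak for the spread among libraries.

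Gluconeogenesis runs glycolysis backwards around its irreversible steps. Pyruvate carboxylase (Pcx) and cytosolic phosphoenolpyruvate carboxykinase (Pck1) lead from pyruvate to phosphoenolpyruvate, fructose-1,6-bisphosphatase (Fbp1) and glucose-6-phosphatase (G6pc) remove phosphate further on, and ketohexokinase (Khk) brings fructose into the same pool. In the kidney this takes place in the proximal tubule, the nephron segment that also reabsorbs filtered glucose through the sodium-glucose cotransporters SGLT2 (Slc5a2, early segments) and SGLT1 (Slc5a1, late segment). Glucose then leaves the cell through the facilitative transporters GLUT2 (Slc2a2) and GLUT1 (Slc2a1).

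Promoter sequences are shown for 4 of the genes, a pair that was lower in injured kidney (Pck1, G6pc) and a pair that did not pass the test (Slc2a1, Slc5a1). They come from RefSeq, build GRCm38.p6, plus strand, and start 250 bases before the RefSeq start of the gene. Each ends before the first annotated transcript start. Capitals mark the motifs found in the printed stretch, which are an HNF1 core (GTTAAT) and a cAMP response element core (TGACG) in Pck1, an HNF1 core in G6pc, and the hypoxia response core (ACGTG, on both strands) in Slc5a1. The Pck1 motifs lie on the minus strand and so read ATTAAC and CGTCA.
Pck1, chr2:173152823-173153047: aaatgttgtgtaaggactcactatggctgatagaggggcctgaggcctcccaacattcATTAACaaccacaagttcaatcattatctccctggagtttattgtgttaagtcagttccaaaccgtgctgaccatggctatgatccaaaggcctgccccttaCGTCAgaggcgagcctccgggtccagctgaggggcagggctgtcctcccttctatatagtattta
G6pc, chr11:101367466-101367560: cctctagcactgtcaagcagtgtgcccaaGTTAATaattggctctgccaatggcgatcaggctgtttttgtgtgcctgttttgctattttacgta
Slc2a1, chr4:119108495-119108710: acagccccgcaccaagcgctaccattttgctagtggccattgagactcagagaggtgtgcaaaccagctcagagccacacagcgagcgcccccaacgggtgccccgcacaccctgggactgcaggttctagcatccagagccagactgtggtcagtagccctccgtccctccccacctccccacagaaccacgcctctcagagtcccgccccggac
Slc5a1, chr5:33103969-33104218: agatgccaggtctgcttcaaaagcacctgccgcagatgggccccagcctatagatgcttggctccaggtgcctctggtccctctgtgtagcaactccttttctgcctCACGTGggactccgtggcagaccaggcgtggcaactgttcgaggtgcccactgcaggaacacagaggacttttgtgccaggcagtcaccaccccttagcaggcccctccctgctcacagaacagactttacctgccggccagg
Both strands of the whole 250 bases were searched for 5 motifs. In Pck1 the HNF1 core lies at positions -192 to -187 and the cAMP core at -90 to -86, counted from the RefSeq start. In G6pc the HNF1 core lies at -221 to -216, and a TATA box (TATAAA) at -29 to -24 falls outside the printed stretch. The hypoxia core of Slc5a1 spans -143 to -138, and Slc2a1 has one at -36 to -32 that runs past its printed end. RefSeq windows were at hand for 8 of the 9 genes, 9 windows in all, since Pcx has a pair; Slc5a2 is named only. HNF1 cores occurred in 3 of these 9 windows and in 6.43% of all 32851 promoter windows. For the cAMP core the figures were 2 windows and 17.8%, for the hypoxia core 4 and 16.6%, and for the TATA box 1 and 12.4%. The forkhead motif GTAAACA was in 0 of the 9 and in 3.17% of all windows. TGACG and ACGTG can share letters and do so in Khk. These matches describe letters, not bound sites.

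Library totals differed. Totals of 4963638 to 6169748 counts were found in 6 libraries, every IRP library with IRV replicates 3 and 4, and totals of 973812 to 1659983 in the other 10. These are called deep and shallow below. The depth difference thus runs through the IRV group and cannot be told apart from injury when all IRP libraries are set against all NP libraries, other than through IRV. Results are therefore also given from a fit with the library set as a covariate. Beside the 9 genes, 20 markers of the proximal tubule summed to 12620 to 25877 CPM in IRP, 12841 to 18959 CPM in IRV, 25475 to 32299 CPM in NP and 27840 to 28904 CPM in NV, where CPM is the count scaled for depth by TMM-adjusted library size. Marker lists of injured tubule, macrophage and fibroblast moved the other way. In IRV against NV, 9 of 9, 9 of 9 and 6 of 7 members were higher, against 15.9% of all tested genes. In IRP against NP, 8 of 9, 9 of 9 and 6 of 7 were higher, against 19.6%. With the library set as a covariate the counts were 8 of 9, 9 of 9 and 6 of 7 in IRV against NV, against 7.93%. In that fit they were 5 of 9, 7 of 9 and 6 of 7 in IRP against NP, against 2.52%. Some of these members passed the filter on low counts only through the injured groups, which limits the counts of higher members. Examples are Havcr1, with 0.744 to 3.84 CPM in NP and 1.71 to 9.90 CPM in NV, and C1qc, with 2.17 to 6.73 and 1.91 to 7.20 CPM. The injured tubule list summed to 2321 to 4249 CPM in IRP, 2904 to 3867 CPM in IRV, 716 to 785 CPM in NP and 657 to 854 CPM in NV. The macrophage list summed to 465 to 1192 CPM in IRP, 634 to 1032 CPM in IRV, 98.0 to 153 CPM in NP and 98.1 to 127 CPM in NV, and the fibroblast list to 1106 to 2873, 1535 to 2508, 288 to 435 and 185 to 435 CPM in IRP, IRV, NP and NV. Their part in the results below was not tested.

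The first question is what injury did without the inhibitor, IRV against NV. All 5 enzyme genes, GLUT2 and SGLT2 fell, and GLUT1 and SGLT1 did not pass the test. That is 7 of 9 genes lower and 0 higher at an adjusted p under 0.05 (edgeR quasi-likelihood test, Benjamini-Hochberg over 13614 genes), against 11.1% of all tested genes lower and 15.9% higher. The 9 genes had a median log2 difference of -0.91, and all tested genes -0.03. For the 7 that fell, no IRV library reached the lowest NV library, which holds for 11.9% of tested genes. In whole tissue, fewer cells of a type and less RNA per cell cannot be told apart.

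Pck1, the enzyme that commits oxaloacetate to gluconeogenesis, had 241, 379, 332 and 582 CPM in IRV replicates 1 to 4, against 812, 969, 837 and 835 CPM in NV. The NV libraries lie close together and the IRV libraries are spread, with replicate 4 highest and all below NV. Its log2 difference was -1.16 ± 0.30 (SE; adjusted p = 0.0076), so the IRV level was 44.6% of NV.

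G6pc, which releases free glucose in the last step, had 62.7, 82.7, 61.8 and 95.02 CPM in IRV, against 219, 142, 255 and 119 CPM in NV. Here the uninjured group is the uneven one, with NV replicates 2 and 4 low, yet still above every IRV library. The log2 difference of -1.27 ± 0.26 (adjusted p = 0.00171) was the lowest of the 9. Fbp1 had 176, 266, 231 and 270 CPM in IRV, against 586, 433, 566 and 544 CPM in NV. The groups were far apart, and the log2 difference was -1.17 ± 0.19 (adjusted p = 0.000323). Fbp1 thus had the smallest adjusted p of the 9 genes, at 44.4% of the NV level.

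Pcx, the mitochondrial entry enzyme, averaged 202 ± 55.8 CPM in IRV and 383 ± 31.9 CPM in NV (SD, n = 4 each), a log2 difference of -0.91 ± 0.18 (adjusted p = 0.00141). Khk averaged 87.5 ± 26.4 CPM in IRV and 166 ± 8.54 CPM in NV, a difference of -0.89 ± 0.20 (adjusted p = 0.00355). In both genes IRV replicate 1, the shallowest library of all, was lowest, with 125 CPM of Pcx and 49.3 CPM of Khk.

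The transporters split by pair. SGLT2 (Slc5a2), which takes up the bulk of filtered glucose, had 65.8, 130, 104 and 108 CPM in IRV, against 225, 155, 230 and 218 CPM in NV. All IRV libraries were below NV, where replicate 2 was low, and the log2 difference was -1.01 ± 0.21 (adjusted p = 0.00212). SGLT1 (Slc5a1), the high-affinity cotransporter further along the tubule, had 33.9, 41.9, 35.5 and 47.6 CPM in IRV, against 39.3, 47.8, 46.8 and 40.2 CPM in NV. These groups overlapped, with a log2 difference of -0.11 (95% interval -0.43 to 0.22; adjusted p = 0.63).

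Among the facilitative transporters, GLUT2 (Slc2a2), the basolateral exit route of the early tubule, had 54.5, 77.2, 79.9 and 87.6 CPM in IRV, against 162, 104, 134 and 138 CPM in NV. The log2 difference was -0.82 ± 0.18 (adjusted p = 0.00247), with no overlap. GLUT1 (Slc2a1), a widely expressed transporter, had 14.4, 25.5, 19.5 and 21.0 CPM in IRV, against 24.8, 20.1, 23.4 and 19.3 CPM in NV. The libraries were interleaved, and the log2 difference was -0.10 (95% interval -0.53 to 0.33; adjusted p = 0.74). GLUT1 rested on 14 to 191 counts in a library. Once the library set entered the fit, the same 7 genes were lower, against 6.13% of all tested genes lower and 7.93% higher, and the median of the 9 was -1.05. With library totals as the only scaling, all 7 still had negative differences, but only 2 passed the test (G6pc and Fbp1). The median of all genes then stood at 0.49, and its part in the lost calls was not tested.

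**Figure D1:**
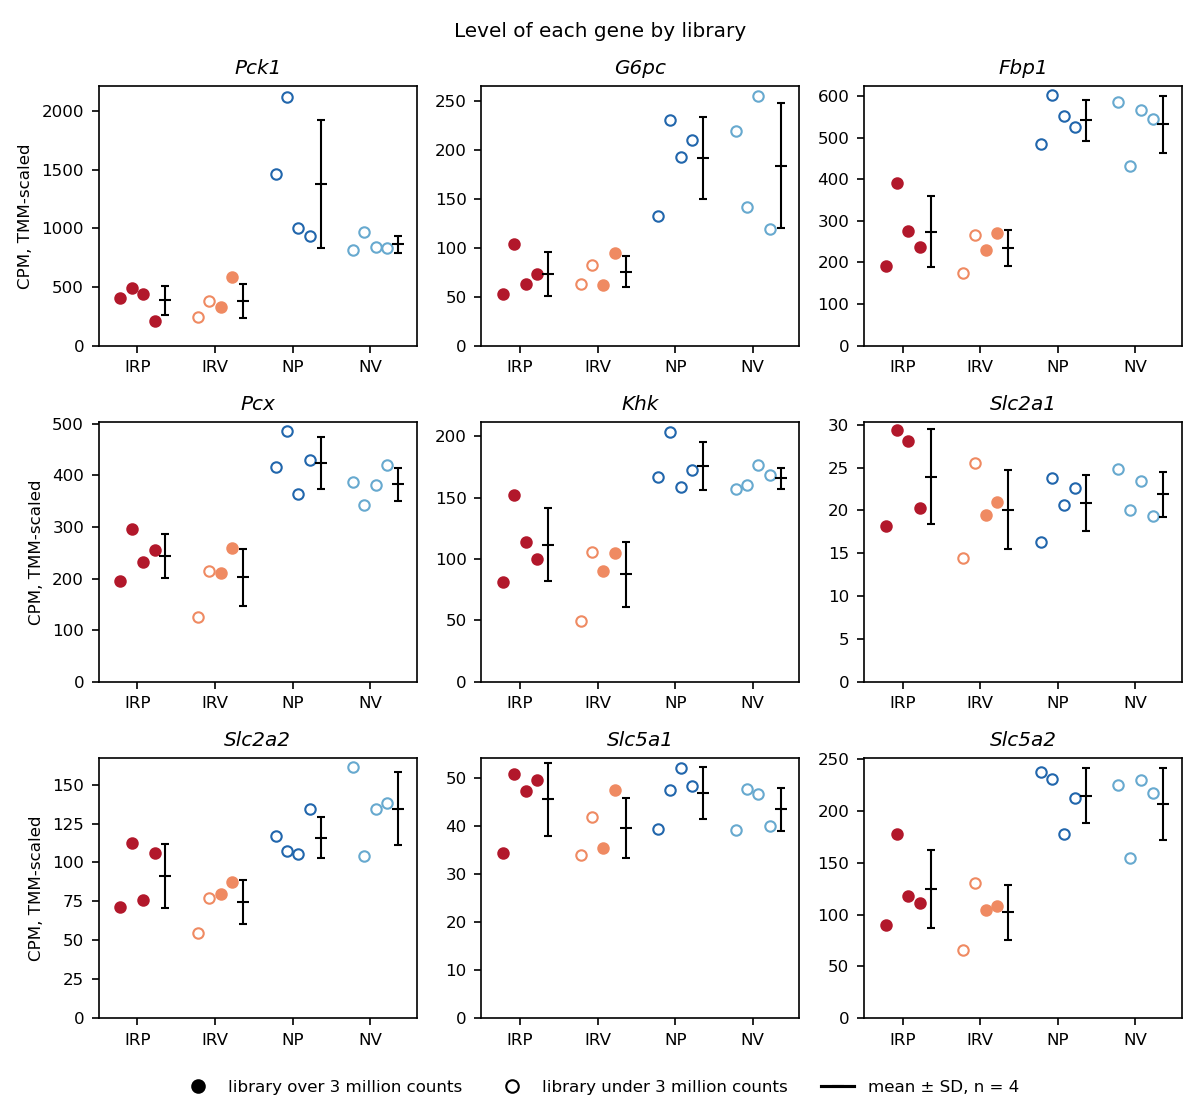
Level of each gene in CPM on TMM-scaled library sizes (vertical axes, from 0), for groups IRP, IRV, NP and NV from left to right. Each point is a library (filled, total over 3000000 counts; open, under that), and the bar beside each group is mean ± SD, n = 4. Pck1, G6pc, Fbp1, Pcx, Khk and Slc5a2 sit lower in IRP and IRV than in NP and NV without overlap within a treatment, and Slc2a1 and Slc5a1 are interleaved.

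Under PJ34, injured kidney (IRP) was set against uninjured kidney (NP). Here 6 of 9 genes were lower and 0 higher, against 24% of all tested genes lower and 19.6% higher, and the median log2 difference was -0.79, with -0.01 for all tested genes. The 6 were the 5 enzymes and SGLT2, and in each of them every IRP library was below every NP library, which holds for 21.2% of tested genes. Once the library set entered the fit, 2 of the 9 passed (Pck1 and Pcx), against 0.786% of all tested genes lower and 2.52% higher, and the median of the 9 was -0.94.

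Pck1 showed the lowest difference. It had 409, 492, 441 and 210 CPM in IRP, against 1465, 2120, 1003 and 933 CPM in NP. NP replicates 1 and 2 were far above the other NP libraries, and all 4 were above IRP. The log2 difference was -1.83 ± 0.30 (SE; adjusted p = 0.000255), and -2.39 ± 0.47 with the set covariate (adjusted p = 0.00926).

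G6pc had 52.6, 104, 62.6 and 73.3 CPM in IRP, against 133, 230, 192 and 210 CPM in NP, a log2 difference of -1.39 ± 0.25 (adjusted p = 0.000476). IRP replicate 2 came nearest to the NP group. Fbp1 averaged 274 ± 85.4 CPM in IRP and 542 ± 49.7 CPM in NP, a difference of -0.99 ± 0.19 (adjusted p = 0.00068). With the set covariate G6pc and Fbp1 stood at -1.49 (adjusted p = 0.064) and -1.16 (adjusted p = 0.051).

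Pcx averaged 245 ± 42.6 CPM in IRP and 424 ± 50.02 CPM in NP, a log2 difference of -0.79 ± 0.18 (adjusted p = 0.0019), and -1.24 with the set covariate (adjusted p = 0.0174). Khk averaged 112 ± 29.8 CPM in IRP and 176 ± 19.7 CPM in NP, a difference of -0.66 ± 0.20 (adjusted p = 0.0123). The gap in Khk is narrow, since IRP replicate 2 had 152 CPM and the lowest NP library 159 CPM. With the set covariate Khk had -0.94 (adjusted p = 0.12).

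SGLT2 had 89.9, 177.9, 118 and 112 CPM in IRP, against 237, 231, 178.3 and 212 CPM in NP. IRP replicate 2 nearly met the lowest NP library, and the log2 difference was -0.79 ± 0.21 (adjusted p = 0.00525), or -0.88 with the set covariate (adjusted p = 0.19). GLUT2 had 71.7, 112, 75.9 and 106 CPM in IRP, against 117, 107, 105 and 134 CPM in NP. Those groups overlapped, and the log2 difference was -0.35 (95% interval -0.71 to 0.017; adjusted p = 0.12). Without IRP replicate 2 it was -0.46 and passed (adjusted p = 0.0426), and with library totals only it was 0.22, or -0.36 relative to the median of all genes.

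SGLT1 averaged 45.6 ± 7.59 CPM in IRP and 46.9 ± 5.39 CPM in NP, and its log2 difference was -0.043 (95% interval -0.35 to 0.27). GLUT1 averaged 24.0 ± 5.58 CPM in IRP and 20.9 ± 3.28 CPM in NP, a difference of 0.18 (95% interval -0.23 to 0.60). Neither passed, with adjusted p of 0.84 for SGLT1 and 0.47 for GLUT1. With library totals only, SGLT1 had 0.53 in IRP against NP and GLUT1 0.42 in IRV against NV, but that scaling moved the median of all genes to 0.57 and 0.49. Relative to the median of all genes, SGLT1 in IRP against NP stood at -0.047 with library totals and at -0.031 with TMM, and GLUT1 in IRV against NV at -0.071 and -0.072.

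**Figure D2:**
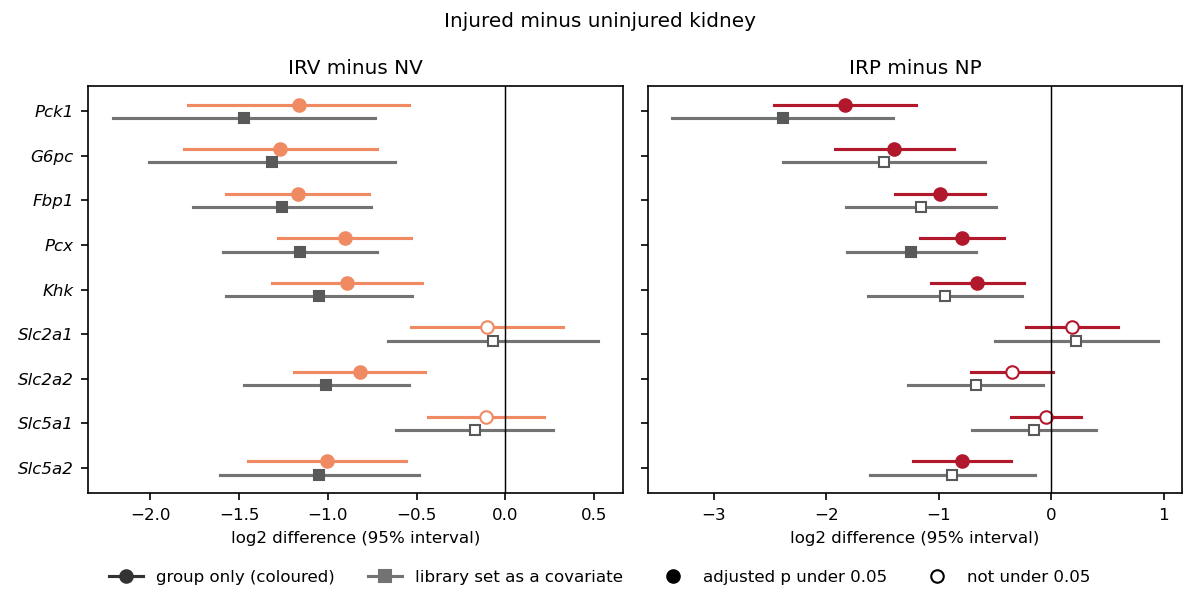
Log2 difference of injured minus uninjured kidney with its 95% interval (horizontal axes), for IRV minus NV (left) and IRP minus NP (right). Coloured circles come from the fit on group alone and grey squares from the fit with the library set as a covariate; filled symbols have an adjusted p under 0.05. Slc2a1 and Slc5a1 lie near 0 in both panels, and the intervals of the covariate fit are wider, most of all for IRP minus NP.

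PJ34 against vehicle in injured kidney, IRP against IRV, called 0 of the 9 genes in either direction (edgeR), and DESeq2 also called 0. Of the 9, 0 had an unadjusted p under 0.05, against 13.5% of all tested genes, of which 0% passed after adjustment. The log2 differences ran from -0.06 for G6pc to 0.32 for Khk, with a median of 0.23, and 8 of 9 were positive. For Pck1 the difference was 0.011 (95% interval -0.60 to 0.62), for SGLT2 0.27 (-0.17 to 0.70) and for GLUT2 0.26 (-0.10 to 0.62). These intervals leave room for differences of either sign. With the set covariate the median was 0.13, and Pck1 had -0.24.

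Within each injured group the same libraries tended to hold the extremes. IRP replicate 2 was highest for 9 of 9 genes and IRP replicate 1 lowest for 8 of 9. IRV replicate 1 was lowest for 8 of 9, and IRV replicate 4 highest for 6 of 9. The mean log2 CPM of the 20 proximal tubule markers was 8.16, 9.02, 8.52 and 8.52 in IRP replicates 1 to 4 and 7.95, 8.51, 8.33 and 8.56 in IRV replicates 1 to 4. Those same libraries thus had the highest and lowest marker levels of their groups, and the part of the marker level in the PJ34 differences was not tested.

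In uninjured kidney, NP against NV, 0 of 9 genes passed (edgeR), 0 by DESeq2, and 1 had an unadjusted p under 0.05, against 3.68% of all tested genes. That gene was Pck1, with 1465, 2120, 1003 and 933 CPM in NP, against 812, 969, 837 and 835 CPM in NV. NP replicates 1 to 3 were above all NV libraries and NP replicate 4 was not. The log2 difference was 0.68 ± 0.29 (95% interval 0.06 to 1.29; unadjusted p = 0.033, adjusted p = 1.00). The other 8 genes ran from -0.21 for GLUT2 to 0.15 for Pcx.

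The difference between the PJ34 effects in injured and uninjured kidney was tested as an interaction, and 0 of 9 genes passed by edgeR or by DESeq2. In the fit on group alone none had an unadjusted p under 0.05, against 11.4% of all tested genes. Pck1 had -0.67 (95% interval -1.54 to 0.20; adjusted p = 0.61), and GLUT2 had 0.47 (-0.04 to 0.99; adjusted p = 0.49). With the set covariate Pck1 had -0.91 (95% interval -1.78 to -0.049) and GLUT2 0.34 (-0.19 to 0.86). The Pck1 interval leaves out 0 before adjustment, and 0 of 9 genes passed after it. GLUT2 passed in IRV against NV and not in IRP against NP, and these values do not show that the injury differences differ.

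Levels were compared between genes as CPM per kilobase of the longest coding transcript. In NP, Pck1 was highest at 519 ± 205 and Fbp1 next at 366 ± 33.6 CPM per kilobase (SD, n = 4). In the other groups Fbp1 led, with 185 ± 57.7 in IRP, 159 ± 29.5 in IRV and 360 ± 46.1 in NV, and Pck1 followed with 146 ± 46.3 in IRP, 144 ± 54.3 in IRV and 324 ± 26.8 in NV. In every group the libraries of these leading genes overlapped, so their order is not settled. Below them the order was the same in all 4 groups: Khk, Pcx, SGLT2, G6pc, GLUT2, SGLT1 and GLUT1. Khk had 70.6, 55.3, 111 and 105 CPM per kilobase in IRP, IRV, NP and NV, and GLUT1 had 7.35, 6.16, 6.40 and 6.72. Khk, Pcx and SGLT2 each overlapped with the next gene in every group, and G6pc did not overlap with GLUT2 in any.

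Ratios of a pair of genes within a library do not depend on the scaling between libraries. For SGLT1 over SGLT2 the mean log2 count ratio was -1.42 ± 0.27 in IRP, -1.33 ± 0.32 in IRV, -2.18 ± 0.34 in NP and -2.23 ± 0.37 in NV (SD, n = 4). The ratio was 0.90 higher in IRV than in NV on the log2 scale, with no overlap (exact permutation test, two-sided, p = 0.0286, adjusted p = 0.0857). It was 0.77 higher in IRP than in NP, with overlap (exact p = 0.0571, adjusted p = 0.137).

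For GLUT1 over GLUT2 the means were -1.93 ± 0.39 in IRP, -1.89 ± 0.22 in IRV, -2.46 ± 0.28 in NP and -2.59 ± 0.21 in NV. IRV exceeded NV by 0.70 with no overlap (exact p = 0.0286, adjusted p = 0.0857), and IRP exceeded NP by 0.53 with overlap (exact p = 0.0857, adjusted p = 0.171). Another ratio set Pck1 against Pck2, the mitochondrial form of the same enzyme. It averaged 4.70 ± 0.59 in IRP, 4.496 ± 0.66 in IRV, 7.10 ± 0.23 in NP and 6.70 ± 0.54 in NV, in log2 units.

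The Pck1 over Pck2 ratio differed by -2.20 in IRV against NV and by -2.41 in IRP against NP, without overlap in either (exact p = 0.0286 each, adjusted p = 0.0857). Pck2 itself averaged 16.02 ± 2.15 CPM in IRV and 8.30 ± 3.48 CPM in NV, a log2 difference of 0.96 ± 0.31 (adjusted p = 0.029, and 0.164 with the set covariate). In IRP against NP it was 0.48 (adjusted p = 0.194). The NP and NV libraries held only 5 to 24 Pck2 counts each, which limits this ratio. Pck2 passed the filter on low counts through the injured groups, which limits its own difference as well. With 4 libraries a group the smallest p the test can give is 0.0286, and 0 of the 12 ratio tests passed after adjustment, with 4 at an unadjusted p under 0.05. IRP did not separate from IRV in any of the 3 ratios, where the differences were -0.09, -0.04 and 0.20.

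**Figure D3:**
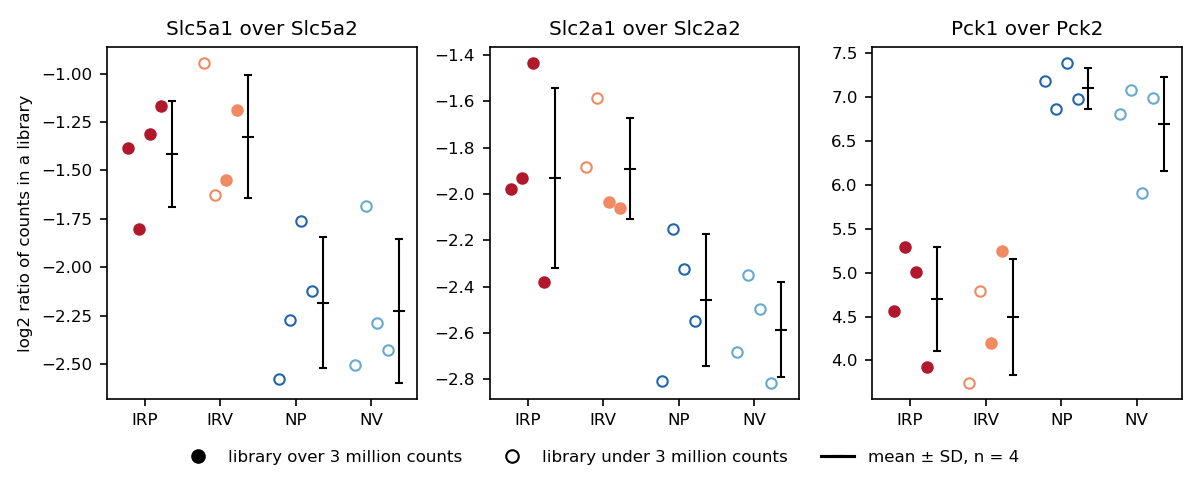
Log2 ratio of counts within a library (vertical axes, different ranges) for Slc5a1 over Slc5a2, Slc2a1 over Slc2a2 and Pck1 over Pck2, in IRP, IRV, NP and NV from left to right. Points are libraries (filled, deep; open, shallow), and bars are mean ± SD, n = 4. IRV lies above NV for the first pair of ratios and below it for Pck1 over Pck2, without overlap.

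Each gene was also expressed relative to the mean log2 CPM of the 20 proximal tubule markers, as a description with no test. The markers themselves differed, with 18 of 20 lower in IRV than in NV (median -0.84) and 14 of 20 lower in IRP than in NP (median -0.61). Of all tested genes, 11.1% and 24% were lower in these comparisons. The marker counts were 18 and 2 of 20 with the set covariate, against 6.13% and 0.786% of all tested genes. Relative to the markers, Pcx, Khk, SGLT2 and GLUT2 lay close to the uninjured level in IRV against NV, at -0.04, -0.06, -0.12 and 0.07, and the libraries overlapped. In IRP against NP the same 4 genes stood at -0.11, 0.01, -0.13 and 0.33, again with overlap. Fbp1 stood lower without overlap in both comparisons, at -0.27 in IRV against NV and at -0.34 in IRP against NP.

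Pck1 stood at -0.32 with overlap in IRV against NV and at -1.13 without overlap in IRP against NP. G6pc stood at -0.31 with overlap and at -0.71 without overlap in those comparisons. GLUT1 and SGLT1 stood higher relative to the markers, without overlap. The marker mean itself was lower after injury, at 8.34 in IRV against 9.26 in NV and 8.56 in IRP against 9.25 in NP (log2 CPM). A gene with an unchanged level therefore also stands higher on this scale. How many of all tested genes lack overlap on it was not computed, for these genes or for Fbp1, Pck1 and G6pc above. GLUT1 was 0.78 higher in IRV than in NV and 0.87 higher in IRP than in NP, and SGLT1 was 0.78 and 0.64 higher. With 8 markers of the early segments in place of the 20, Pck1 in IRP against NP overlapped, and the other descriptions of overlap were as given. Most of those 8 are also among the 20, so the lists are not independent.

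**Figure D4:**
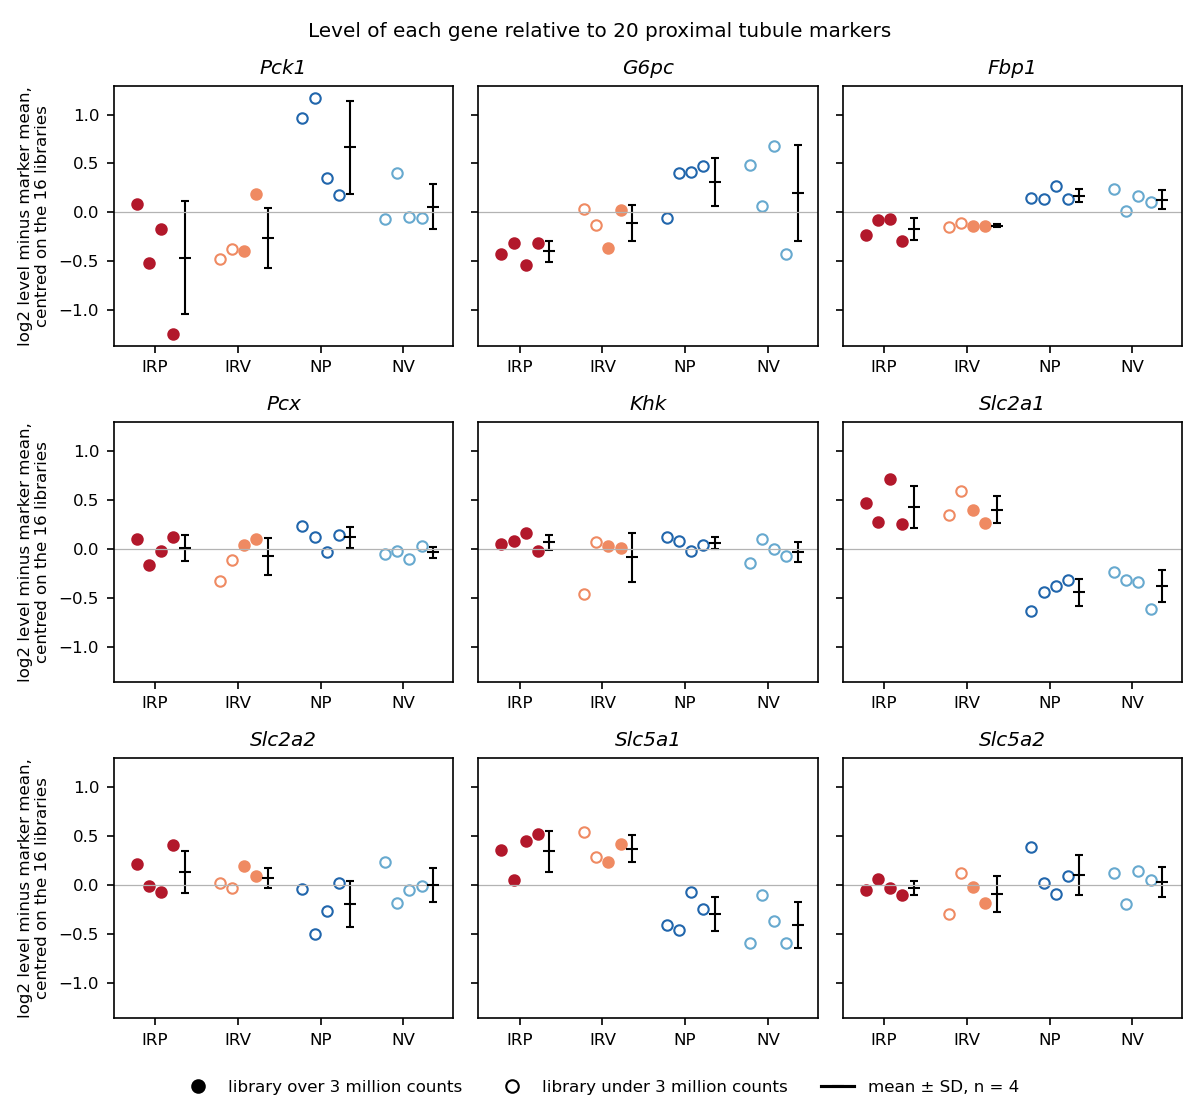
Log2 level of each gene minus the mean log2 CPM of 20 proximal tubule markers, centred on the 16 libraries (vertical axes, shared), in IRP, IRV, NP and NV from left to right. Points are libraries (filled, deep; open, shallow) and bars are mean ± SD, n = 4. Slc2a1 and Slc5a1 sit higher in the injured groups, Fbp1 lower, and Pcx, Khk, Slc2a2 and Slc5a2 overlap. The marker mean is itself lower in the injured groups, so a gene with an unchanged level also sits higher there.

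Likeness between the 9 genes was measured as the root mean square difference of their centred log2 CPM over the 16 libraries. All genes of a library share its depth and scaling. Pcx and Khk were closest at 0.12, followed by Khk and SGLT2 at 0.16. GLUT1 and SGLT1 differed by 0.21, and Pck1 and GLUT1 were farthest apart at 0.90. Among 12172 candidate genes, those most like Pck1 were the steroid dehydrogenase Hsd3b3 (0.34), the flavin monooxygenase Fmo1 (0.36) and the mitochondrial carrier Slc25a25 (0.37), against Pck1's own deviation of 0.89. Most like SGLT2 were the mitochondrial protein Chchd10 (0.12), the vitamin B12 carrier Tcn2 (0.13) and Slc34a1 (0.13), the last of which encodes the main phosphate transporter of the proximal tubule. SGLT2's own deviation was 0.56. Most like GLUT1 were B3galnt1 (0.13), P4hb (0.17) and Wbp1 (0.17), against GLUT1's own deviation of 0.26. That deviation is small, so a short distance says less for GLUT1 than for Pck1 or SGLT2.

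The counts of the lists that follow are to be read against all tested genes, of which 11.1% were lower and 15.9% higher in IRV against NV, and 24% lower and 19.6% higher in IRP against NP. In the fit with the set covariate the shares were 6.13% lower and 7.93% higher in IRV against NV, and 0.786% lower and 2.52% higher in IRP against NP. Other enzymes of gluconeogenesis, most of them shared with glycolysis, had 11 of 16 tested members lower and 1 higher in IRV than in NV, with a median log2 difference of -0.65. Gapdh had -0.81 ± 0.14 (adjusted p = 0.000406), Mdh2 -0.65 ± 0.12 and Pgk1 -0.69 ± 0.13. The 1 higher gene was Pck2, which passed the filter through the injured groups. In IRP against NP, 10 of 16 were lower, with a median of -0.50, and with the set covariate 10 and 1 of 16 were lower in IRV against NV and in IRP against NP.

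Genes that supply substrate had 11 of 16 lower and 0 higher in IRV against NV, with a median of -0.64, and 9 of 16 lower in IRP against NP, with a median of -0.49. The mitochondrial pyruvate carrier Mpc1 had -1.11 ± 0.20 in IRV against NV, the lactate transporter Slc5a12 -0.98 ± 0.22, glycerol kinase Gk -0.77 ± 0.17 and glycerol-3-phosphate dehydrogenase Gpd1 -0.79 ± 0.16. All 4 were lower in IRP against NP as well. With the set covariate Gk still passed there, at -1.10 (adjusted p = 0.0408). Slc5a12 (-1.19, adjusted p = 0.0687), Gpd1 (-0.73, adjusted p = 0.134) and Mpc1 (-0.45, adjusted p = 0.499) did not. Over the whole list, 8 and 2 of 16 were lower in the covariate fit, in the comparisons without and with PJ34.

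Other sugar transporters had 6 of 13 lower and 0 higher in IRV against NV (median -0.62), and 3 of 13 lower in IRP against NP (median -0.48). Slc2a5, the fructose transporter GLUT5, had -1.21 ± 0.32 (adjusted p = 0.0102), Slc2a4, the insulin-responsive GLUT4, -1.16 ± 0.33, the fructose and mannose cotransporter Slc5a10 -0.97 ± 0.27, and Pdzk1ip1, a partner protein of SGLT2 also known as MAP17, -0.71 ± 0.15 (adjusted p = 0.00175). In IRP against NP, Slc2a5 had -0.48 (adjusted p = 0.235) and Pdzk1ip1 -0.34 (adjusted p = 0.0638). Slc2a4 did not pass once the set was a covariate, at -0.66 in IRV against NV (adjusted p = 0.325) and 0.0025 in IRP against NP (adjusted p = 1.00). Genes for fructose and polyols had 6 of 7 lower in IRV against NV (median -0.74) and 3 of 7 in IRP against NP (median -0.48), among them sorbitol dehydrogenase Sord at -1.17 ± 0.18 in IRV against NV. In the covariate fit, 4 of 13 other sugar transporters were lower in IRV against NV and 0 in IRP against NP, and for fructose and polyols 6 of 7 and 0 of 7.

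Of 10 tested enzymes of the opposing glycolytic steps, 3 were higher and 0 lower in each comparison with injury, with medians of 0.17 in IRV against NV and 0.25 in IRP against NP. Hexokinase 2 (Hk2), which traps glucose in the cell, was higher by 2.45 ± 0.54 in IRV against NV (adjusted p = 0.00295) and by 2.59 ± 0.56 in IRP against NP (adjusted p = 0.00159). Its NP and NV libraries held only 0.744 to 3.26 CPM, so it passed the filter through the injured groups, and its fold rests on few counts. The 3 of 10 stand against 15.9% and 19.6% of all tested genes higher in those comparisons. The platelet-type phosphofructokinase Pfkp was higher by 0.86 ± 0.17 in IRV against NV (adjusted p = 0.00154) and had 0.28 in IRP against NP (adjusted p = 0.18). Pfkfb4, which sets the level of an activator of phosphofructokinase, had 1.25 ± 0.35 in IRV against NV (adjusted p = 0.0137). Its NV libraries held 1.54 to 5.74 CPM and its NP libraries 5.77 to 10.4 CPM. Like Hk2, Pfkfb4 passed the filter through the injured groups. Pfkfb3, of the same family, passed the test in IRP against NP at 1.27 ± 0.24. With the set covariate 2 of 10 were higher in IRV against NV and 0 in IRP against NP, where Hk2 had 2.52 (adjusted p = 0.107).

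Regulators of these genes had 3 of 20 lower and 1 higher in IRV against NV, and 4 lower and 3 higher in IRP against NP. In this fit on group alone the counts were near or below the shares over all tested genes. With the set covariate 2 of 20 were lower and 0 higher in each comparison. Of all tested genes, 6.13% were lower there in IRV against NV and 0.786% in IRP against NP. Hnf4a, a nuclear receptor that maintains proximal tubule and liver identity, had -0.89 ± 0.16 in IRV against NV and -0.67 ± 0.16 in IRP against NP. Klf15, which in mouse liver promotes gluconeogenesis from amino acids, had -1.04 ± 0.24 in IRV against NV and -0.88 ± 0.23 in IRP against NP. Both remained lower with the set covariate in each comparison, with adjusted p between 0.00159 and 0.0474. Ppargc1a, the coactivator PGC-1alpha, had -0.36 (adjusted p = 0.0497) in IRV against NV, and Foxo3 had 0.42 (adjusted p = 0.0288). Neither of that pair passed with the covariate.

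No gene of these lists passed in IRP against IRV or in NP against NV (edgeR), where 0 of all 13614 genes passed. Of the remaining marker lists, early proximal tubule genes had 7 of 8 lower in each comparison with injury, and late ones 5 of 7 lower in IRV against NV and 3 of 7 in IRP against NP. Markers of the loop, distal tubule and collecting duct had 2 of 8 lower in each, close to the 24% of all tested genes in IRP against NP. Endothelial markers had 2 of 6 higher in IRV against NV and 3 of 6 in IRP against NP. Erythrocyte markers had 0 of 4 and 3 of 4 lower, and markers of liver, the other main gluconeogenic organ, 0 of 3 and 1 of 3, in those comparisons. When the set entered the fit, 7 of 8 early and 1 of 7 late proximal tubule genes were lower in IRV against NV, and 0 of 8 and 0 of 7 in IRP against NP. No gene of the loop, endothelial, erythrocyte or liver lists passed in that fit in either comparison. The part of these cell types in the values of the 9 genes was not tested.

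**Figure D5:**
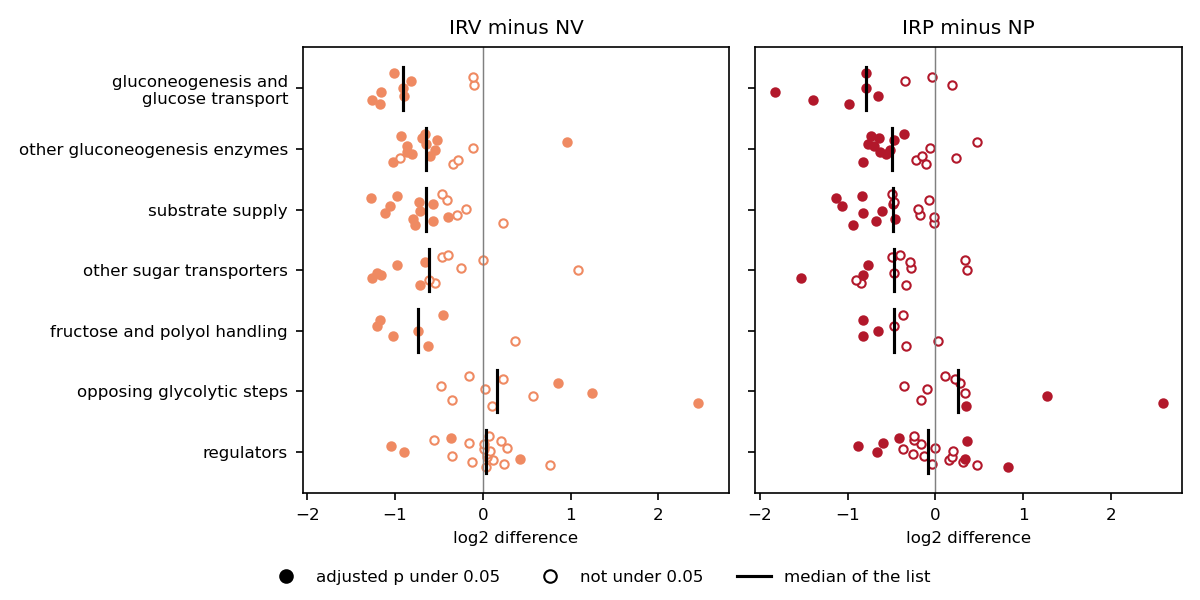
Log2 difference of each tested gene (points) in the 9 genes and 6 related lists, for IRV minus NV (left) and IRP minus NP (right). Filled points have an adjusted p under 0.05, open points do not, and the bar is the median of the list. The lists for gluconeogenesis, substrate supply, sugar transport and fructose lie mostly below 0, and the opposing glycolytic steps do not.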

How the data were processed

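Poly(A) RNA libraries of 16 kidney samples were grouped by the labels into 4 groups of 4. The authors deposited expected counts per gene as whole numbers, not scaled between libraries. The build GRCm39 and the tools Salmon 1.3.0, Trim Galore 0.6.6, FastQC 0.11.3 and DESeq2 1.30.1 are named in the submitters' processing notes; their roles and settings are not given in the sources used here. Symbols were matched by Ensembl ID for 40276 IDs. Salmon shares reads among similar transcripts.

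Genes were filtered with filterByExpr (minimum count 10) and tested with the quasi-likelihood test of edgeR 4.0.16 (R 4.3.3), TMM scaling, all 16 libraries in 1 fit, and Benjamini-Hochberg adjustment at 0.05. Count ratios used a pseudocount of 0.5 and an exact permutation test over 70 assignments, adjusted over 12 tests. Log2 CPM used a prior count of 2. Likeness was taken among genes whose average log2 CPM was 1 or more. Alternatives were DESeq2 1.42.0, its size factors, library totals, no filter, a replicate block, the library set (cut at 3000000 counts), a set alone and leaving out each library. The rule for named genes took the 9 genes, up to 4 genes of each list with the smallest p in IRV against NV, 3 genes most like Pck1, Slc5a2 and Slc2a1, and Pck2. The 9 genes and the lists were chosen with earlier results of these data known. A few listed genes are not reported here. The scripts were tested on simulated counts. Intervals cover the spread between libraries. Within each group, every pair of libraries differed by more than sampling noise.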

Additional observations from a re-analysis of the deposited data

Results flagged for a closer look

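Of 48 sets of 4 libraries examined, 2 held a library far from the other 3, and chance alone gives about 1 in 20. Both involve replicate 2 of NV. Pck1 stood at 969 CPM in it, the highest of the group, with the other 3 libraries at 812 to 837 CPM. Slc5a2 stood at 155 CPM in it, the lowest of the group, with the others at 218 to 230 CPM. The calls of both genes in IRV against NV held when this library was left out.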

How the results depend on the processing

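The 13 differences that passed were recomputed under 85 alternative values other than leaving out a library: 65 still passed in the same direction, 20 kept the direction and missed the threshold, and 0 reversed. In IRV against NV, 7 of the 9 genes passed, against 2 with library totals only and 3 with no filter on low counts. In IRP against NP, 6 passed, against 2 with the library set as a covariate; of the 4 lost, adjusted p ran from 0.051 to 0.19. With library totals 2 genes were lower there (Pck1 and G6pc) and 2 higher (GLUT1 and SGLT1), and with no filter 3 were lower (Pck1, G6pc and Fbp1) and 1 higher (GLUT1). Library totals moved the median of all genes to 0.49 in IRV against NV and 0.57 in IRP against NP, and no filter moved it to 0.29 and 0.42. Differences that did not pass and turned sign under totals and under no filter were GLUT1 (0.42 and 0.22) and SGLT1 (0.41 and 0.21) in IRV against NV, and GLUT2 (0.22 and 0.087) and SGLT1 (0.53 and 0.39) in IRP against NP. Relative to the shifted median, SGLT1 under totals stood at -0.08 in IRV against NV and -0.05 in IRP against NP. GLUT1 in IRP against NP passed under totals (0.75, adjusted p = 0.00366) and no filter (0.62, adjusted p = 0.0259), and SGLT1 passed there under totals (adjusted p = 0.0109). Relative to the median, GLUT1 there stood at 0.17 and 0.20 (0.20 with TMM and the filter) and GLUT2 at -0.36 and -0.34 (-0.34). The part of the shift of all genes in these calls and turns of sign was not tested. In IRP against IRV, G6pc turned to 0.055 with no filter, and Pck1 to -0.24 with the set covariate and -0.24 in the deep libraries alone, where GLUT1 over GLUT2 had 0.11 and Pck1 over Pck2 -0.028. The Pcx interaction was -0.090 with the set covariate. Deviations of same-numbered libraries had correlations of -0.23 to 0.26, not over 0.1 in every pair of any comparison. Over 0.1 were 2 of 4 pairs in IRV against NV, 1 in IRP against NP, 1 in IRP against IRV and 0 in NP against NV. The labels do not say whether the numbers pair libraries, and so few pairs cannot settle it. With a replicate block the counts stayed at 7, 6, 0, 0 and 0, and Pck1 in IRP against IRV turned to -0.0195. Leaving out each library in turn gave 7 to 7 genes in IRV against NV, 6 to 7 in IRP against NP and 0 in the other comparisons. Differences that turned sign when a library was left out, none of which had passed, ranged as follows. SGLT1 in IRP against NP had -0.16 to 0.0071. In IRP against IRV, Pck1 had -0.15 to 0.27, G6pc -0.28 to 0.072 and Fbp1 -0.0135 to 0.35. In NP against NV, G6pc had -0.099 to 0.26, Fbp1 -0.061 to 0.075, GLUT1 -0.13 to 0.039 and SGLT2 -0.061 to 0.13. For the interaction, G6pc had -0.34 to 0.037, Fbp1 -0.039 to 0.33, Pcx -0.049 to 0.25, SGLT1 -0.024 to 0.19 and SGLT2 -0.010 to 0.35. Ratios in IRP against IRV ran from -0.19 to 0.039 for SGLT1 over SGLT2, -0.21 to 0.11 for GLUT1 over GLUT2 and -0.051 to 0.46 for Pck1 over Pck2, and SGLT1 over SGLT2 in NP against NV from -0.098 to 0.22. Causes of these changes were not tested. Pck2 and Hk2 rest on few counts in the NP and NV libraries.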
